A study of Mus musculus with 8 samples.

Results

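Of the 56691 gene identifiers in the count table of this tumour study, 6 were taken by symbol for the aryl hydrocarbon receptor (AHR) pathway, namely Cyp1b1, Cyp1a1, Ahr, Ahrr, Arnt and Tiparp. The genes were proposed with results of the same comparison in view. For that reason the differences of these 6 genes between groups are given as a description, with folds and errors but no p-value. MC38 is a mouse colon adenocarcinoma line, and the tumours grew in C57BL/6J mice, an inbred strain that carries a high-affinity form of the receptor. The design had 4 tumours treated with the agent C26 (10 mg/kg every other day, 2 weeks) and 4 control tumours. For C26 the labels hold a code name alone. What the control mice received and how old the animals were is not stated in the labels, nor whether every sample is a different animal. The p-values below measure the spread between these samples, which may be technical.

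The receptor waits in the cytosol in a complex with HSP90 and the co-chaperone p23 (gene Ptges3). After it binds a ligand such as a dioxin, a polycyclic hydrocarbon or a product of tryptophan breakdown, it moves to the nucleus, pairs with ARNT and binds DNA at a short core motif, GCGTG. Cyp1a1 and Cyp1b1, which encode enzymes of the cytochrome P450 family, are classical target genes, as are Ahrr, whose protein represses the receptor, and Tiparp, an ADP-ribosyltransferase that limits its activity. CYP1B1 oxidises polycyclic hydrocarbons, oestradiol and retinoids and is also known from mesenchymal and vascular cells without any added ligand. In bulk tumour RNA, fewer cells of a type and less RNA per cell cannot be told apart.

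RefSeq promoter windows (GRCm38.p6, 250 bases before to 50 after the start) were matched for 5 of the 6 genes by symbol. The pair below is shown because Cyp1b1 differed between the groups while Cyp1a1, the P450 gene most used as a readout of the receptor, gave no counts. Capitals mark the core motif GCGTG or its reverse complement CACGC, and each window lies on the strand of its gene, at chr17:79715012-79715311 (minus strand) for Cyp1b1 and at chr9:57697363-57697662 (plus strand) for Cyp1a1.
Cyp1b1: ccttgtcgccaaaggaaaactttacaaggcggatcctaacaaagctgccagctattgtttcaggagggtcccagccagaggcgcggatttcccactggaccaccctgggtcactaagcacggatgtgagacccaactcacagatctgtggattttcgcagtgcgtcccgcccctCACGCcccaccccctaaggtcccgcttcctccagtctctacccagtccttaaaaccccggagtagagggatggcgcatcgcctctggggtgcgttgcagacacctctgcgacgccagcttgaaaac
Cyp1a1: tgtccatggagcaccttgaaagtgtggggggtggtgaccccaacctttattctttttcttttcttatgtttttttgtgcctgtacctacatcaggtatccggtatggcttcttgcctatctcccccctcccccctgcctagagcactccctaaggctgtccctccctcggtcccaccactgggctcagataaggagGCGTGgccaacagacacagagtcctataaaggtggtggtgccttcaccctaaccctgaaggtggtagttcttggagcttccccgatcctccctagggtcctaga
The Cyp1b1 window held 1 copy, on the reverse strand and beginning 76 bases before the start. That of Cyp1a1 held 1 copy, on the forward strand and beginning 54 bases before the start. The Ahrr window held 3 copies, and those of Arnt and Tiparp 1 each. Sequence farther than 250 bases before the start was not searched, so these counts do not compare the full upstream regions of the genes. The motif is common, since 32.4% of all 32851 windows and 50.3% of the first windows of 10769 tested genes had it on either strand, and a match of these letters is a description, not a binding site.

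Total counts were 18362600 to 21501163 per C26 library and 17075176 to 21517425 per control library. Levels are given as CPM, a gene's reads relative to those of its library, scaled by TMM factors. Of 15755 genes that passed edgeR's filter on low counts, 1223 were called at an adjusted p under 0.05 in edgeR's quasi-likelihood test, or 7.76%, with 3.64% called higher and 4.12% called lower in C26. An unadjusted p under 0.05 was reached by 25.6% of the tested genes. DESeq2 called 1813 of these 15755 genes at the same threshold, which is the background for its calls in the lists below. With total library sizes in place of TMM factors, 78.7% of the calls were higher in C26, against 46.9% with them. Epithelial markers gave no check of the labelled line, since 9 of 10 listed colon epithelial genes stayed under 0.5 CPM in every library and Cdx2 was at 0 throughout.

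Cyp1b1 (ENSMUSG00000024087, chromosome 17, 79701537 to 79715061, minus strand, GRCm38) was higher in C26 tumours. Its level was 4.64, 2.95, 2.14 and 2.02 CPM in C26 libraries 1 to 4, against 0.942, 1.32, 1.04 and 1.27 CPM in control libraries 1 to 4. Every C26 library lay above every control library, as for 7.91% of all tested genes, and C26 library 1 stood highest, while the control libraries kept close together. The mean was 2.94 ± 1.21 CPM in C26 and 1.14 ± 0.182 CPM in control (SD, n = 4 each). The fitted log2 fold change was 1.36 ± 0.28 (SE), a 2.57-fold difference, and 0.584% of tested genes were called with a log2 fold change of at least 1.

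Few reads carry that difference. The C26 libraries held 88, 57, 47 and 40 Cyp1b1 counts and the control libraries 20, 25, 21 and 21. Pooled over libraries, 232 counts in C26 gave 2.90 CPM with an exact Poisson 95% interval of 2.54 to 3.30, and 87 counts in control gave 1.13 CPM with an interval of 0.905 to 1.39, both covering counting error only. Of the 6 genes, 4 passed the low-count filter and edgeR called 1, Cyp1b1, where 7.76% of all tested genes were called. Since Cyp1b1 was chosen with this comparison in view, nothing is read from that count. Among 543 genes called higher in C26 with a mean of at least 1 CPM, it stood at place 27 by fold. Leaving out each library in turn gave log2 fold changes of 1.06 (without C26 library 1) to 1.50 (without C26 library 4).

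**Figure D1:**
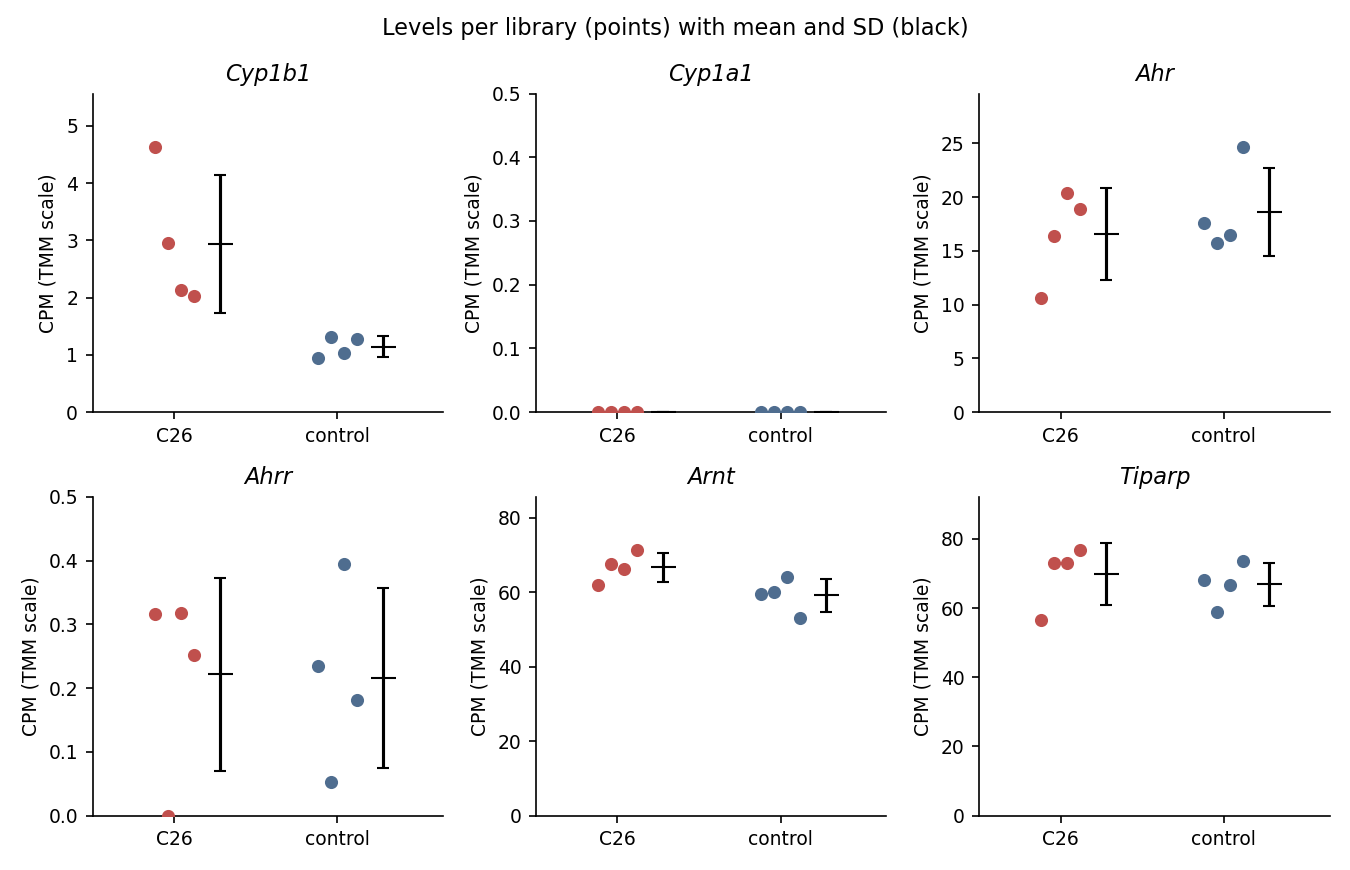
CPM on the TMM scale of each of the 6 genes by library, with C26 at left and control at right in each panel and black marks for the mean and SD of 4 libraries. Cyp1b1 lies between 2.02 and 4.64 CPM in C26 and between 0.942 and 1.32 CPM in control, Cyp1a1 is at 0 in every library, and the groups overlap for Ahr, Ahrr, Arnt and Tiparp.

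Cyp1a1 (ENSMUSG00000032315, chromosome 9, 57687928 to 57703824, plus strand), the P450 gene most often read as a sign of receptor activity, had 0 counts in all 4 C26 and all 4 control libraries. A count of 0 over a group allows up to 3 counts, or 0.0375 CPM in C26 and 0.0390 CPM in control, so a level of that size was not detectable at this depth. Cyp1a2, the neighbouring P450 of the same subfamily, likewise had 0 counts in all 8 libraries. Within the CYP1 family, therefore, reads were found for Cyp1b1 and for neither of the other two.

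Ahr itself (ENSMUSG00000019256, chromosome 12, 35497974 to 35535038, minus strand), the receptor gene, had 10.6, 16.4, 20.4 and 18.9 CPM in C26 libraries 1 to 4, against 17.6, 15.8, 16.5 and 24.7 CPM in control libraries 1 to 4. The groups overlapped, with the lowest value in C26 library 1 and the highest in control library 4. Means were 16.6 ± 4.30 CPM in C26 and 18.6 ± 4.11 CPM in control (SD, n = 4 each), and the fitted log2 fold change of -0.16 ± 0.20 (SE) was not called. Without C26 library 1 it was -0.0027, and without control library 4 it was -0.0041.

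Arnt (ENSMUSG00000015522, chromosome 3, 95434388 to 95497240, plus strand), the nuclear partner that AHR shares with the hypoxia factors, had 61.8, 67.5, 66.3 and 71.3 CPM in C26 libraries 1 to 4. In control libraries 1 to 4 it had 59.6, 60.0, 64.0 and 53.0 CPM. The C26 values were mostly the higher ones, but C26 library 1 lay below control library 3. The log2 fold change of 0.17 ± 0.08 (SE) was not called with TMM factors, whereas scaling by total library size gave 0.25 and a call.

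Of the feedback genes, Tiparp (ENSMUSG00000034640, chromosome 3, 65528410 to 65555518, plus strand) had 56.5, 72.9, 73.2 and 76.8 CPM in C26 libraries 1 to 4. In control libraries 1 to 4 its level was 68.2, 58.8, 66.7 and 73.7 CPM. The groups overlapped over most of their range, C26 library 1 being the lowest of all 8. Its log2 fold change was 0.06 ± 0.10 (SE) and not called. An antisense transcribed pseudogene, 4931440P22Rik, overlaps its exons and held 25, 44, 26 and 21 counts in C26 libraries 1 to 4 and 35, 22, 30 and 20 in control libraries 1 to 4, against at least 1072 counts of Tiparp in any library. Since the strand setting of the counting is not given in the sources used here, the reads of this pair cannot be separated with certainty. Gm48236, which overlaps Ahr exons on the other strand, held at most 2 counts in a library.

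Ahrr (ENSMUSG00000021575, chromosome 13, 74211118 to 74292331, minus strand), the repressor gene, was too low to be tested, with 6, 0, 7 and 5 counts in C26 libraries 1 to 4 and 5, 1, 8 and 3 counts in control libraries 1 to 4. The sums, 18 counts in C26 and 17 in control, correspond to 0.225 CPM with an exact Poisson interval of 0.133 to 0.356 and 0.221 CPM with an interval of 0.129 to 0.354.

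Per kilobase of exon (FPKM, over the GENCODE M21 exon union), the order of levels was the same in both groups. Tiparp was highest at 16.0 ± 2.08 in C26 and 15.3 ± 1.41 FPKM in control, followed by Arnt at 8.34 ± 0.487 in C26 and 7.39 ± 0.566 FPKM in control and Ahr at 2.69 ± 0.698 in C26 and 3.03 ± 0.666 FPKM in control (SD, n = 4 each). Cyp1b1 came next at 0.503 ± 0.207 in C26 and 0.196 ± 0.0312 FPKM in control, then Ahrr at 0.0235 ± 0.016 in C26 and 0.0229 ± 0.015 FPKM in control. Neighbours among the first 5 in that order were further apart than their SDs in either group, whereas Ahrr and Cyp1a1 were both at 0 in C26 library 2. Cyp1b1 was thus a low transcript in both groups, well under the receptor gene.

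Ahr and Tiparp varied together from library to library. Across the 8 libraries their log2 CPM gave Pearson r = 0.80 (exact permutation p = 0.0108, adjusted p = 0.0323 over 3 pairs) and Spearman rho = 0.86 (exact permutation p = 0.0107, adjusted p = 0.0321). Without C26 library 1 and control library 4, the samples farthest from the median of Ahr, r was 0.69 over 6 libraries. That value was not tested, and how many of all tested genes vary as closely with Ahr was not counted. Ahr against Arnt gave r = -0.22 (exact permutation p = 0.621, adjusted p = 0.621) and rho = -0.07 (p = 0.882, adjusted p = 0.882, exact permutation), and r was 0.48 without the same pair of libraries. Tiparp against Arnt gave r = 0.28 (exact permutation p = 0.491, adjusted p = 0.621) and rho = 0.31 (p = 0.462, adjusted p = 0.693, exact permutation), with r = 0.28 after C26 library 1 and control library 2 were left out. No r is given with Cyp1b1, whose groups lie apart, and with 4 libraries a group none is given within groups. In C26 library 1, Cyp1b1 had its highest level while Ahr and Tiparp had their lowest.

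**Figure D2:**
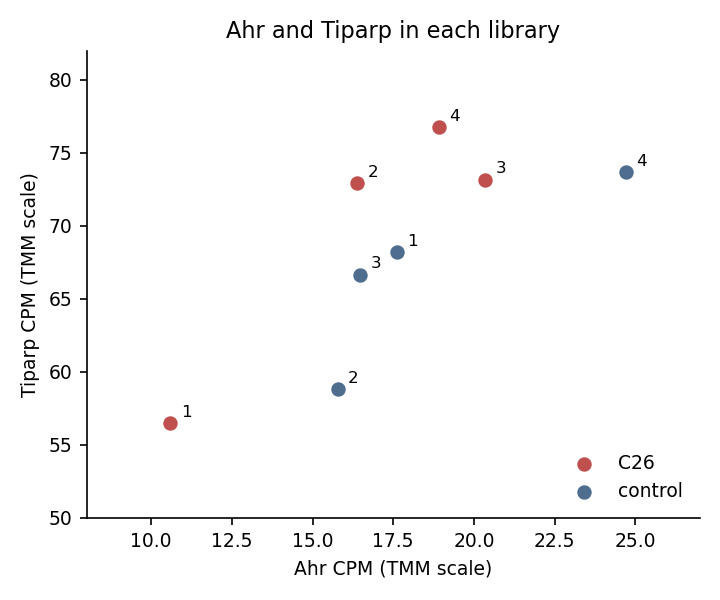
Tiparp CPM against Ahr CPM on the TMM scale, 1 point a library, numbered by replicate and coloured by group (C26 and control). C26 library 1, at 10.6 and 56.5 CPM, is lowest for both genes, and control library 4 has the highest Ahr at 24.7 CPM.

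Among 16 further genes listed as classical targets of the receptor, 8 were tested and 0 were called by edgeR. An unadjusted p under 0.05 in edgeR was found for 1 of them. Over all tested genes edgeR called 7.76%, and 25.6% had an unadjusted p under 0.05. DESeq2 called 1 of the 8 target genes, and 1813 of all 15755 tested genes. The median log2 fold change of the 8 was -0.09, beside 0.01 over all tested genes, and 7 of the 8 were below 0. Slc7a5, which encodes a large neutral amino acid transporter, had 284, 407, 408 and 317 CPM in C26 libraries 1 to 4, against 424, 476, 415 and 494 CPM in control libraries 1 to 4. Its groups did not overlap, as in 16.1% of tested genes counted in either direction, but its log2 fold change of -0.35 ± 0.11 (SE) did not pass (edgeR adjusted p = 0.068). It did pass without C26 library 2 or C26 library 3 (edgeR adjusted p of 0.0473 and 0.0434), with the replicate number as a block (0.0415) and in DESeq2 (adjusted p = 0.0249), as well as without a low-count filter (0.000375, edgeR). With a marker level as a covariate its log2 fold change was -0.05 (fibroblast), -0.23 (endothelial), -0.27 (pericyte and smooth muscle) and -0.67 (skeletal muscle), none of them passing (edgeR adjusted p of 0.83, 0.463, 0.462 and 0.0512). Ereg, which encodes the growth factor epiregulin, averaged 6.03 ± 1.89 CPM in C26 and 7.08 ± 1.50 CPM in control (SD, n = 4 each; edgeR adjusted p = 0.551).

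Nqo1, the quinone reductase gene that both AHR and NRF2 induce, was chosen after its values were seen. Its levels of 14.7, 12.4, 19.7 and 18.1 CPM in C26 libraries 1 to 4 overlapped the 15.2, 17.2, 17.1 and 22.1 CPM of control libraries 1 to 4. The log2 fold change was -0.13 ± 0.15 (SE; adjusted p = 0.6 by edgeR). Ptgs2, the cyclooxygenase gene, also named after its values were seen, was lowest in C26 library 1 at 13.7 CPM and highest in control library 4 at 38.6 CPM. Those are the libraries in which Ahr was lowest and highest. Among the other tested targets, Slc7a5, Ereg and Nfe2l2 had the same extreme libraries, whereas Nqo1, Xdh, Socs2 and Ugt1a6a were lowest in other ones. This comparison was made after the values were seen, and how many of all tested genes share these extremes was not counted. The 8 target genes left untested, among them Aldh3a1, Gsta1 and Il22, stayed between 0 and 0.759 CPM in every library.

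Among the genes of the chaperone complex and the coactivators, the calls fell on some of the coactivators. Of these 8 genes, all of them tested, edgeR called 2 higher and 0 lower, where 3.64% of all tested genes were called higher and 4.12% lower. The median log2 fold change was 0.05. Ncoa2, a p160 coactivator of nuclear and bHLH-PAS factors, had 44.0, 46.4, 40.1 and 49.5 CPM in C26 libraries 1 to 4, against 37.8, 34.2, 35.3 and 34.7 CPM in control libraries 1 to 4. Every C26 value was above every control value, as for 7.91% of all tested genes, and the log2 fold change was 0.34 ± 0.08 (SE; adjusted p = 0.0194 by edgeR). Ep300, a histone acetyltransferase used by many factors, had 70.3, 74.1, 72.7 and 71.2 CPM in C26 libraries 1 to 4, against 62.0, 59.9, 57.2 and 62.0 CPM in control libraries 1 to 4. Its groups were also separate, with a log2 fold change of 0.26 ± 0.07 (SE; adjusted p = 0.0258 by edgeR). Ncoa1 and Ncoa3, the other listed coactivators, chosen by role, were not called. Their log2 fold changes were 0.27 and 0.02 (edgeR adjusted p of 0.0837 and 0.872). The Ncoa1 groups were separate, at 20.35 to 23.97 CPM in C26 and 17.02 to 19.31 CPM in control, and those of Ncoa3 overlapped.

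Both coactivator calls were lost in some fits with a library left out. The log2 fold changes in such fits ran from 0.29 to 0.39 for Ncoa2 and from 0.23 to 0.27 for Ep300. Calls over all genes ran from 643 to 1457 in the same fits, against 1223 with all libraries. Ncoa2 lost its call without C26 library 4 or without control library 2 or 3 (edgeR adjusted p of 0.0578, 0.0588 and 0.0517). Ep300 lost its call without C26 library 2 or 3 or without control library 1, 2 or 3 (edgeR adjusted p of 0.0543, 0.0572, 0.0644, 0.072 and 0.0889). Neither was called with any of the 4 marker levels (fibroblast, endothelial, pericyte and smooth muscle, skeletal muscle) as a covariate, at edgeR adjusted p of 0.0868 to 0.214 for Ncoa2 and 0.0654 to 0.311 for Ep300. The log2 fold changes with these covariates were 0.25 to 0.41 for Ncoa2 and 0.22 to 0.32 for Ep300. Chaperone genes, chosen by role, did not pass, with log2 fold changes of -0.15 for Hsp90ab1 and -0.15 for Ptges3 (edgeR adjusted p of 0.183 and 0.204), while Hsp90aa1 had 0.08 (0.53). The Hsp90ab1 groups did not overlap, at 2782 to 3144 CPM in C26 and 3178 to 3415 CPM in control. Groups were separate in either direction for 16.1% of all tested genes.

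Enzymes of the kynurenine route, which turns tryptophan into compounds that can bind the receptor, gave 0 calls among 8 tested of 11 listed genes by edgeR and by DESeq2, with 1 at an unadjusted p under 0.05, beside 7.76% called by edgeR and 25.6% under 0.05 over all tested genes. Their median log2 fold change was -0.13. Kyat3, a kynurenine aminotransferase gene, averaged 27.2 ± 2.90 CPM in C26 and 23.6 ± 1.83 CPM in control (SD, n = 4 each; edgeR adjusted p = 0.195). Ido2 averaged 1.49 ± 0.335 CPM in C26 and 1.92 ± 0.183 CPM in control (edgeR adjusted p = 0.336). Ido1, the interferon-induced enzyme that opens the route, was chosen by role and stood at 0.832 ± 0.225 CPM in C26 and 0.899 ± 0.223 CPM in control. Tdo2, Kynu and Il4i1, which also encode tryptophan- or kynurenine-using enzymes, fell below the filter.

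AHR and ARNT belong to the bHLH-PAS family, a class of paired transcription factors. Its other members gave 0 calls among 5 tested of 9 listed genes by edgeR, with 1 at an unadjusted p under 0.05. Over all tested genes the shares were the same 7.76% and 25.6%. DESeq2 called 1 of the 5 genes, and 1813 of all 15755 tested genes. The median log2 fold change was 0.15 and all 5 were above 0. Epas1, the hypoxia factor gene best known from endothelial cells, had 9.91, 7.88, 8.11 and 8.24 CPM in C26 libraries 1 to 4, against 5.98, 6.02, 7.45 and 5.45 CPM in control libraries 1 to 4. All C26 values were above all control values, as for 7.91% of tested genes, yet its log2 fold change of 0.45 ± 0.14 (SE) did not pass (edgeR adjusted p = 0.0603). It passed without control library 3 (0.0487, edgeR), in DESeq2 (adjusted p = 0.0358), in limma-voom (0.0457) and with total library sizes (0.0266). With the endothelial, fibroblast, or pericyte and smooth muscle marker level as a covariate its log2 fold change was 0.20, 0.21 and 0.22 (edgeR adjusted p of 0.615, 0.558 and 0.622). With the skeletal muscle level it was 0.57 (edgeR adjusted p = 0.227). Clock, a circadian factor gene, averaged 51.6 ± 3.59 CPM in C26 and 46.4 ± 2.78 CPM in control (SD, n = 4 each; edgeR adjusted p = 0.219).

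Redox partners of P450 enzymes and genes of oestrogen and retinoid handling gave 0 calls among 9 tested of 12 listed genes by edgeR and by DESeq2, with 0 at an unadjusted p under 0.05 and a median log2 fold change of -0.01, where 7.76% of all tested genes were called and 25.6% were under 0.05. Por, the reductase that supplies electrons to CYP1B1, was chosen by role and averaged 30.5 ± 0.995 CPM in C26 and 30.0 ± 1.19 CPM in control (SD, n = 4 each).

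The other P450 genes give the family around Cyp1b1, which was itself chosen for its difference. Of 131 table rows with P450 symbols, pseudogenes included, 73 had 0 counts in all libraries and 20 were tested. Of the 20, edgeR called Cyp1b1 and no other, where 7.76% of all tested genes were called. The next highest log2 fold change after Cyp1b1 was 0.25 for Cyp7b1, an oxysterol hydroxylase gene named after its value was seen, and the lowest was -0.40. A further gene, Cyp2d22, was called when C26 libraries 2 and 3 were both left out (log2 fold change 0.45, edgeR adjusted p = 0.0282), and stood at 0.17 ± 0.18 with all libraries (SE; adjusted p = 0.581 by edgeR). The PARP family, to which Tiparp belongs, was taken by symbol, as Tiparp and Parp with a number. Family genes under other symbols were not counted. The 13 genes so taken were all tested and gave 0 calls by edgeR and by DESeq2, with 0 at an unadjusted p under 0.05. Over all tested genes edgeR gave 7.76% and 25.6%. Log2 fold changes of the 13 genes ran from -0.01 to 0.15.

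**Figure D3:**
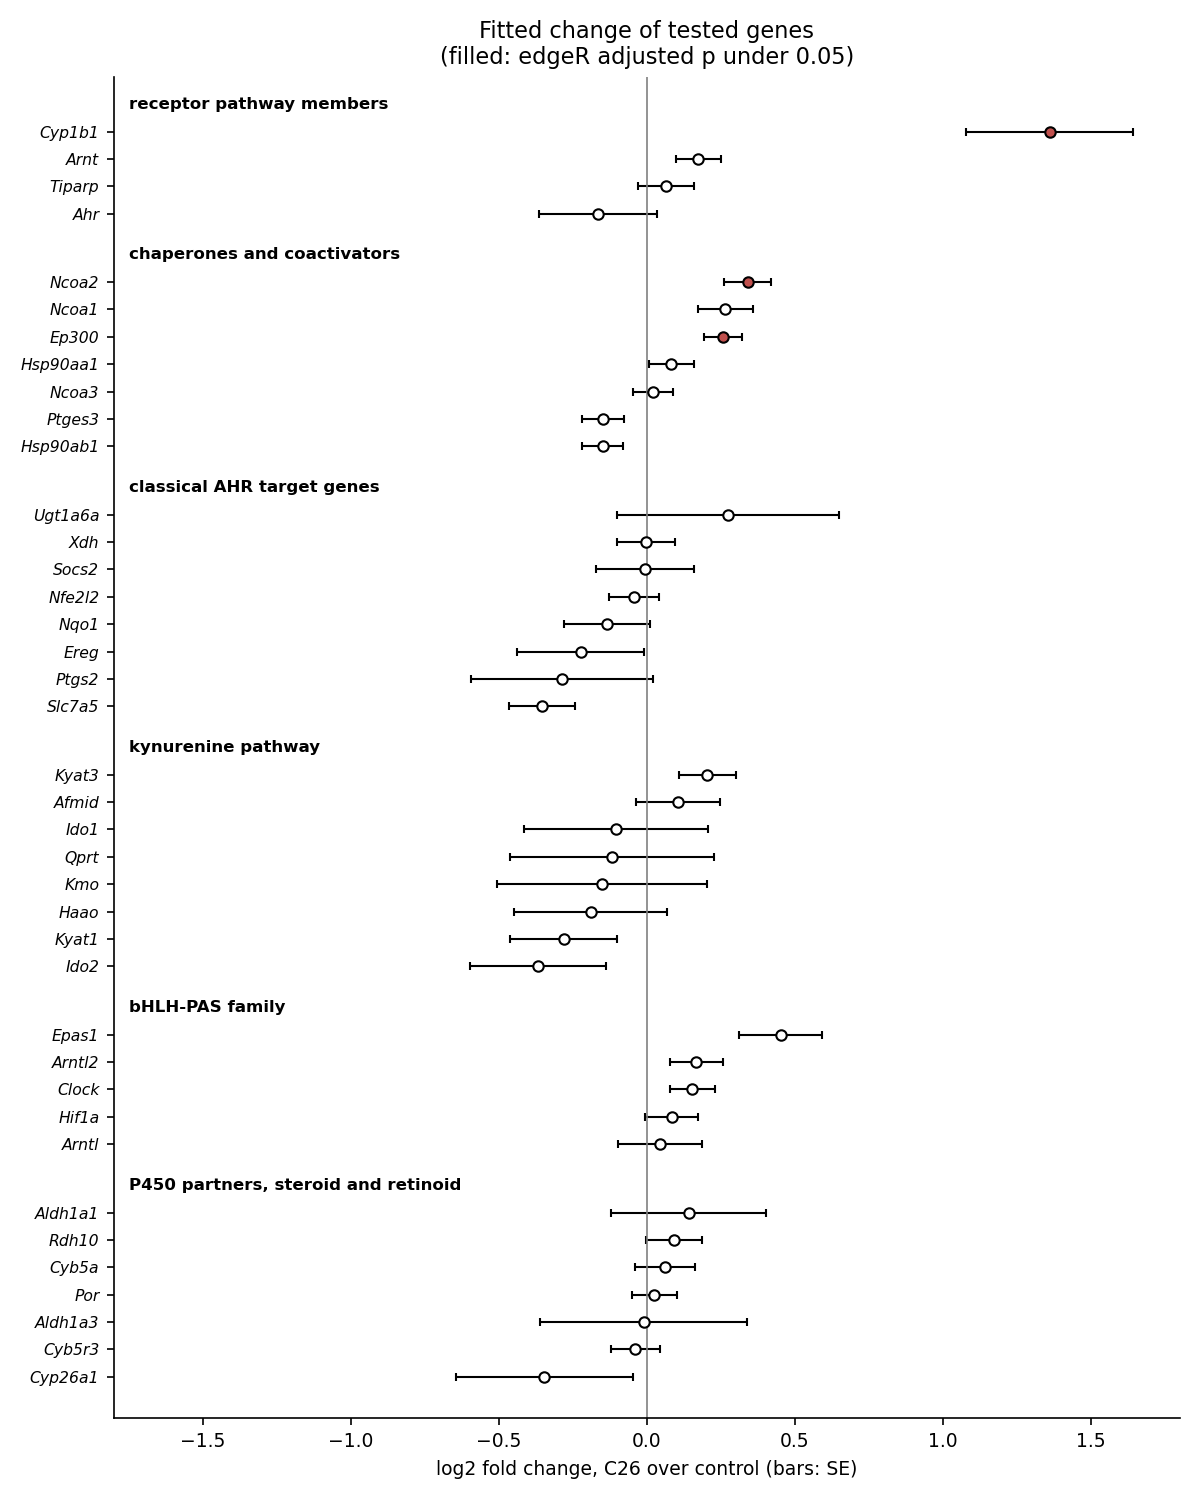
Log2 fold change of C26 over control with its SE for tested genes of the AHR pathway and the related lists, filled where edgeR's adjusted p was under 0.05. Cyp1b1 stands at 1.36, the called coactivator genes Ncoa2 and Ep300 at 0.34 and 0.26, and the other genes plotted lie between -0.37 and 0.45 and were not called. Other P450 genes are not plotted unless a list holds them.

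The summed level of the fibroblast markers was higher in every C26 library than in any control library. The summed CPM of 10 fibroblast markers was 7616, 5564, 5453 and 7504 in C26 libraries 1 to 4, against 4600, 4276, 4933 and 3172 in control libraries 1 to 4. The difference had the smallest p the design allows (exact two-sided permutation p = 0.0286 with 70 arrangements, adjusted p = 0.129 over 9 marker lists). As a mean of log2 CPM, in which each gene weighs the same, the list differed by 0.48 (exact permutation p = 0.0571), and 1 of the 10 genes was called higher by edgeR, where 3.64% of all tested genes were. Endothelial markers summed to 97.5 to 115 CPM in C26 and 61.7 to 106 CPM in control (2 of 9 tested called higher). Pericyte and smooth muscle markers summed to 330 to 380 CPM in C26 and 277 to 372 CPM in control (1 of 9 tested called higher). Skeletal muscle markers ran from 25.1 to 623 CPM in C26, the highest value being that of C26 library 2, and from 10.1 to 44.9 CPM in control (1 of 9 tested called higher). None of the 9 lists passed after adjustment, for which at least 6 of them would have had to reach the smallest possible p.

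As a ratio to the fibroblast, endothelial, or pericyte and smooth muscle markers, the Cyp1b1 difference was smaller. Per 1000 CPM of fibroblast markers, Cyp1b1 had 0.609, 0.531, 0.393 and 0.270 CPM in C26 libraries 1 to 4, against 0.205, 0.309, 0.210 and 0.401 CPM in control libraries 1 to 4. These groups overlapped, with means of 0.451 ± 0.150 in C26 and 0.281 ± 0.0930 in control (SD, n = 4 each), a ratio of 1.60. The ratio of means was 1.74 per endothelial marker CPM, where the groups overlapped, and 2.19 per pericyte and smooth muscle marker CPM, where they did not. With the mean level of the fibroblast list as a covariate, the log2 fold change was 1.26 ± 0.43 (SE) and no longer called. It was 1.32 ± 0.46, 1.41 ± 0.47 and 1.30 ± 0.44 (SE) and likewise not called with the endothelial, the pericyte and smooth muscle, or the skeletal muscle level. The fit without a covariate gave 1.36 ± 0.28 (SE), so the SE was larger in each covariate fit. Each of these levels shared 53.6% to 60.3% of its variance with the group, and their part in the result was not tested.

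**Figure D4:**
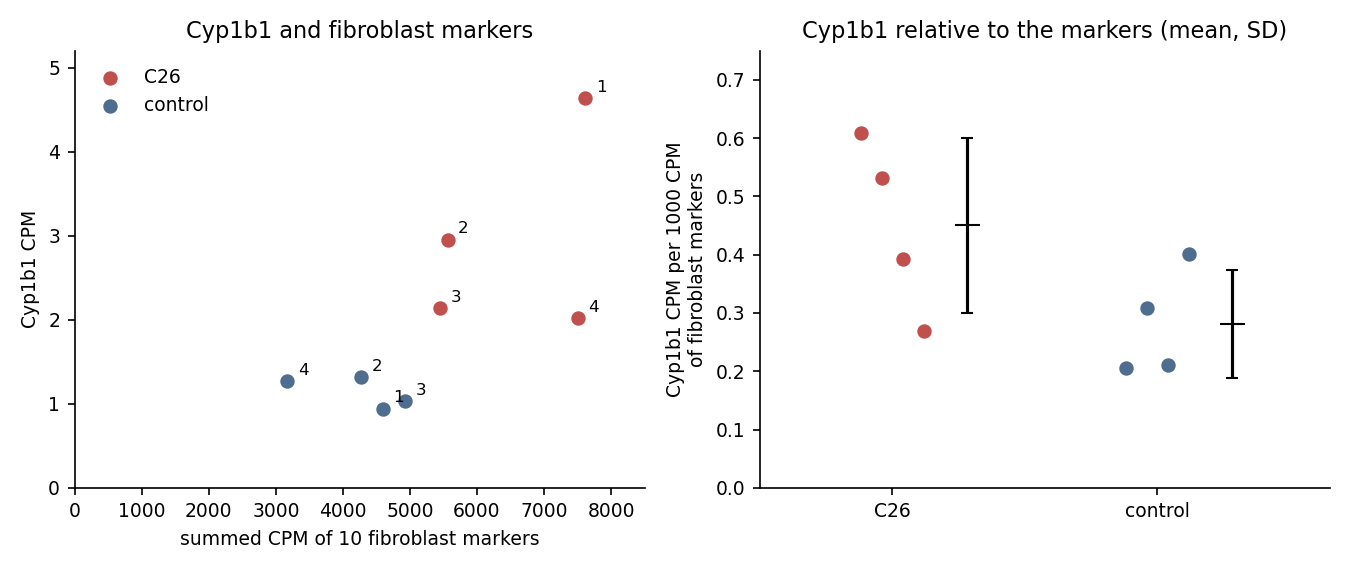
Left, Cyp1b1 CPM against the summed CPM of 10 fibroblast markers in each library, numbered by replicate and coloured by group. Right, Cyp1b1 CPM per 1000 CPM of those markers, with C26 at left, control at right and black marks for mean and SD, showing that the groups overlap at 0.270 to 0.609 in C26 and 0.205 to 0.401 in control.

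Macrophage markers summed to 632 to 958 CPM in C26 and 745 to 1091 CPM in control, and red blood cell genes to 8.39 to 11.9 CPM in C26 and 22.8 to 99.9 CPM in control, where control library 3 stood highest. The red blood cell groups were separate (exact permutation p = 0.0286, adjusted p = 0.129). T and NK cell markers ran from 4.15 to 5.11 CPM in C26 and from 3.87 to 8.24 CPM in control, with Cd3e, Cd3d, Cd3g, Cd8b1 and Trac under 0.5 CPM in every library. Adipocyte markers ran from 42.1 to 56.0 CPM in C26 and from 38.9 to 52.8 CPM in control, with Adipoq, Plin1, Lep, Cidec and Retn under 0.5 CPM in every library. Colon epithelial markers ran from 2.98 to 3.92 CPM in C26 and from 3.01 to 4.79 CPM in control.

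The genes whose profile was nearest to that of Cyp1b1 were found over the 8 libraries by the mean absolute difference of standardised log2 CPM. The search covered 12085 tested genes with a symbol and a mean of at least 1 CPM. Pseudogenes and genes with Gm or Rik symbols were left out. The 5 nearest were Eps15l1 at 0.207, Irf2 at 0.210, CT030661.1 at 0.215, Palmd at 0.228 and Ino80dos at 0.235, where the median gene was at 1.06. Palmd, which encodes palmdelphin, was the one of the 5 that edgeR called, with 3.53, 2.75, 2.00 and 2.33 CPM in C26 libraries 1 to 4 and 1.13, 1.58, 1.68 and 1.70 CPM in control libraries 1 to 4 (log2 fold change 0.80, edgeR adjusted p = 0.0492). That call was lost when C26 library 1, 2 or 4 or any one of the control libraries was left out (edgeR adjusted p of 0.108, 0.0897 and 0.0696 for the C26 libraries and of 0.141, 0.0912, 0.0824 and 0.0661 for control libraries 1 to 4). It was also lost with RLE size factors (0.0505), with the replicate number as a block (0.0759), without C26 libraries 2 and 3 (0.0604) and with each of the 4 marker levels as a covariate (0.25 to 0.37, edgeR adjusted p throughout). Irf2, which encodes an interferon regulatory factor, differed far less, at 55.7, 51.2, 52.3 and 50.8 CPM in C26 libraries 1 to 4 and 47.3, 49.1, 46.6 and 48.5 CPM in control libraries 1 to 4. After each group was centred on its own mean, the nearest were Safb2 at 0.141, Eny2 at 0.153, Hdac8 at 0.214, Dchs1 at 0.216 and Zfp606 at 0.216, against a median of 1.09. The lists shared no gene. How near the nearest genes would lie by chance was not tested. Cyp1b1 had 20 to 25 counts in each control library, so counting error weighs on its profile within that group.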

How the data were processed

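The authors' deposited table holds raw counts per Ensembl gene for 8 tumour RNA libraries, 4 a group, with 17075176 to 21517425 counts each. Oligo(dT) beads were used to select RNA, per the labels' protocols. HISAT2 2.2.1, featureCounts 2.0.1, Trim Galore 0.6.7 and mm10 are listed in the submitters' processing notes, but Cutadapt, STAR and RSEM in the series design text. No source used here gives the annotation release or the strand setting. Symbols were found in GENCODE M21 for 52073 of 56691 identifiers.

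After filtering (filterByExpr) and TMM scaling, C26 was compared with control by edgeR 4.0.16's quasi-likelihood test (R 4.3.3; group only; two-sided), with Benjamini-Hochberg adjustment over 15755 genes and a threshold of 0.05. The test was checked on simulated counts. Log2 CPM used a prior count of 2, and marker sums were compared by exact permutation. DESeq2 1.42.0 and limma 3.58.1 (voom) were tried as alternatives, with other scalings and filters, a replicate block, marker levels as covariates, and each library left out.

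The 6 genes and the lists were chosen with earlier results of these data known. Named genes were the 6, list genes past the threshold or, where fewer than 2 passed, the 2 with the smallest p, called P450 and PARP genes, and the nearest profiles. A few listed genes are not reported or plotted here. Others are marked as chosen by role or after their values were seen.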

Additional observations from a re-analysis of the deposited data

Results flagged for a closer look

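Cyp26a1, a retinoic acid-degrading P450 gene, had 2.30 CPM in control library 4, against 1.04 to 1.23 CPM in the other control libraries. That gap was 0.844 of the range of the group, above Dixon's 95% critical value for 4 samples. It was the 1 such sample found among 104 groups examined, and chance flags about 1 in 20 groups.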

How the results depend on the processing

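Cyp1b1 kept its direction in every fit and its call except with a marker level as covariate (log2 fold changes of 1.26 for fibroblast, 1.30 for skeletal muscle, 1.32 for endothelial and 1.41 for pericyte and smooth muscle markers, the last pair of settings added after seeing the data). Every fit reuses the libraries in whose view Cyp1b1 was chosen. These fits therefore describe how far its value depends on the settings and are no further evidence of a difference. Ahr was 0.25 with the fibroblast and 0.14 with the pericyte covariate, Tiparp -0.0035 without C26 libraries 2 and 3, and Arnt 0.25 and called with total library sizes. Genes called numbered 1948 without a low-count filter, 1949 with total library sizes, 620, 530, 48 and 68 with the fibroblast, endothelial, pericyte and skeletal muscle covariates, and 643 to 1457 with a library left out (643, 703 and 644 without control library 1, 2 or 3 and 725 without C26 library 4). Chaperone and coactivator calls fell to 0 with each covariate and 1 without C26 libraries 2 and 3, and were 0 to 2 with a library left out. Target genes had 1 call in DESeq2, without a filter, with the replicate block and without C26 libraries 2 and 3, and 0 to 1 with a library left out. The bHLH-PAS list had 1 call in DESeq2, in limma-voom and with total library sizes, and 0 to 1 with a library left out. P450 genes had 0 calls with each covariate and 2 without C26 libraries 2 and 3, and the partner list had 1 with the fibroblast covariate. Uncalled genes whose log2 fold change turned sign were Ereg (0.19), Nqo1 (0.12), Ptgs2 (0.35), Cyp2d22 (-0.20), Cyp7b1 (-0.07) and Ido1 (0.04) with the fibroblast covariate, Nqo1, Ptgs2 (0.10 each) and Ido1 (0.45) with the pericyte covariate, Hsp90aa1 (-0.07), Kyat3 (-0.04), Nqo1 (0.10) and Ido1 (0.15) with the skeletal muscle covariate, Ido1 (0.34) with the endothelial covariate, Nqo1 (0.0072) in limma-voom, and Hsp90aa1 (-0.0049) and Ido1 (0.17) without C26 libraries 2 and 3. With a library left out, Ido1 ran from -0.28 to 0.03 and Por from -0.0014 to 0.04. As a mean of log2 CPM, the fibroblast list differed by 0.48 and lost its unadjusted threshold. The cause of these shifts was not tested. Deviations of same-numbered libraries correlated at -0.02, 0.13, -0.02 and 0.09, against -0.20 to 0.21 for the other pairs. C26 libraries 2 and 4 were nearest to their own number, and C26 libraries 1 and 3 were not. With 4 libraries a group, these values do not settle whether same-numbered libraries were paired. The replicate block gave 1184 calls and 1.32 for Cyp1b1. Depth limits Ahrr and Cyp1a1.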
